A study of Mus musculus with 15 samples.

Results

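Fibroblast genes of the meninges differed widely among 15 mRNA-seq libraries of mouse dorsal forebrain at embryonic day 18, and the 5 libraries with the highest level of these genes were set against the 5 with the lowest. Libraries were selected on measured values: each was scored by its mean log2(TPM + 0.5) of Col1a1, Col1a2, Col3a1, Dcn and Ogn, where TPM, the unit of the deposited values, is a level scaled by transcript length to a fixed total in each library. The 5 highest and the 5 lowest libraries took in 10 of the 15, and the other 5 lay between them. Since these values chose the libraries, the contrast between the 2 ends is given as a description with no test, and differences are followed by their standard error over 5 against 5 libraries.

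All embryos were offspring of C57BL/6J dams that carried a subcutaneous osmotic minipump from before mating through gestation. The pump released arginine vasopressin (AVP), a peptide hormone whose chronic infusion is used as a mouse model of preeclampsia, or saline, which the labels also call vehicle. There were 4 libraries each of AVP males, saline males and saline females and 3 of AVP females, and the study set aside 1 further AVP female before deposit. Samples are named here by group and by the number in their label. Tissue was taken from 8 litters, and the study states that embryos of 1 sex and treatment came from separate litters. The labels do not tie samples to litters, so p-values measure the spread between these samples. Fits over all 15 libraries therefore count brothers and sisters of a litter as independent. The library labelled saline male 12 held 266 TPM of Xist and 0.489 TPM summed over Y-linked genes, levels found in the females. It ranked 9 of 15 in the score and is in neither end, and it was kept as a male in the main fits and in means by sex.

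The meninges are the connective tissue layers that cover the brain. Their fibroblasts secrete collagens and small leucine-rich proteoglycans, lay down part of the basement membrane at the brain surface, and supply retinoic acid, bone morphogenetic proteins and the chemokine Cxcl12 to the developing cortex. The outer cells of the arachnoid form a barrier with tight junctions and solute transporters, and macrophages distinct from microglia live along these layers. The innermost layer adheres to the cortex and can stay on it in dissection. In bulk tissue, fewer cells of a type and less RNA per cell cannot be told apart.

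The score ran from 3.26 in saline male 4 to 5.37 in saline male 5. From the top, the 5 highest were saline male 5 at 5.37, AVP female 11 at 5.36, AVP male 2 at 5.31, AVP female 10 at 5.23 and saline male 13 at 5.03. Between the ends lay AVP female 3 at 4.96, AVP male 9 at 4.88, AVP male 1 at 4.68, saline male 12 at 4.67 and saline female 6 at 4.42. The 5 lowest were saline female 14 at 4.26, saline female 7 at 4.26, AVP male 8 at 4.25, saline female 15 at 4.11 and saline male 4 at 3.26. Scores were thus spread along a range and did not fall into separate clusters of rich and poor libraries. The libraries on each side of the upper boundary differed by 0.07 and those on each side of the lower boundary by 0.16, whereas the largest step, 0.85, separated saline male 4 from all others.

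**Figure D1:**
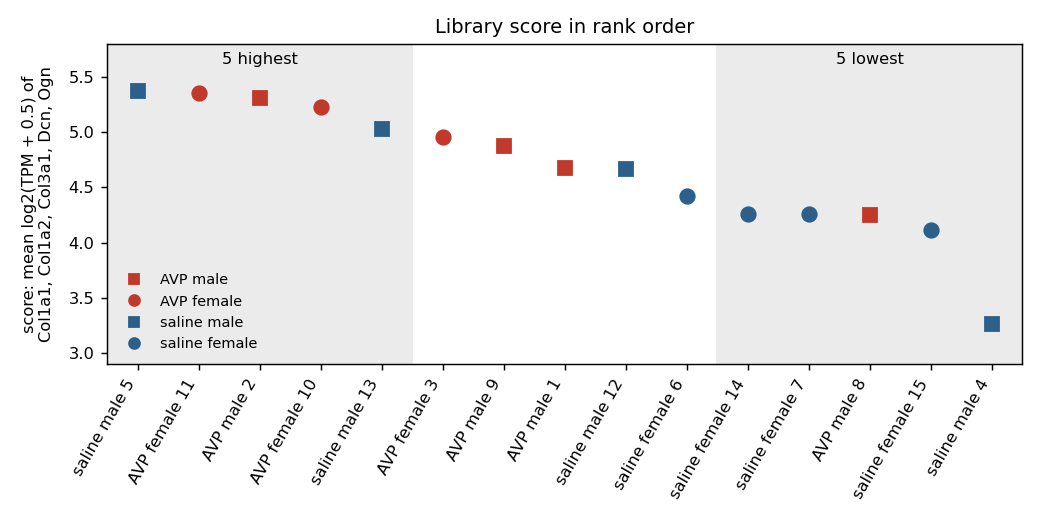
The score of each library on the y axis (mean log2(TPM + 0.5) of Col1a1, Col1a2, Col3a1, Dcn and Ogn) with libraries on the x axis in rank order, coloured by treatment and shaped by sex. Shading marks the 5 highest and the 5 lowest, and saline male 4 at 3.26 stands 0.85 below its neighbour.

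The mean score was 5.26 in the 5 highest and 4.03 in the 5 lowest, a difference of 1.23. Col1a1, a chain of type I collagen, was at 22.8, 21.4, 22.7, 20.5 and 18.4 TPM in the 5 highest and at 9.40, 10.5, 10, 12.2 and 5.28 TPM in the 5 lowest, in rank order of the score. Dcn, which encodes the proteoglycan decorin, was at 63.6, 65.9, 62.2, 68.7 and 53.2 TPM against 34.0, 28.2, 29.4, 30.6 and 10.5 TPM. Differences of the score genes ranged from 1.13 for Col3a1 to 1.37 for Ogn on the log2 scale. These genes had a pairwise Pearson's r of 0.78 to 0.96 over the 15 libraries, and together they made up 0.00491% of TPM in saline male 4 and 0.0240% in AVP female 11. Even the lowest library therefore held meningeal transcripts, and the 2 ends were richer and poorer in them, with none lacking them.

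Whole-library measures overlapped between the ends. Mitochondrial transcripts took 4.59% to 9.38% of TPM in the 5 highest and 4.44% to 8.17% in the 5 lowest, ribosomal protein transcripts 8.5% to 11% and 9.12% to 10.3%, and 14928 to 15897 against 15097 to 15515 genes reached 1 TPM. Depth is unknown from TPM.

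Apart from the 5 score genes, 15073 genes reached 1 TPM in 50% or more of the libraries. Of these, 226 were higher in every one of the 5 highest libraries than in any of the 5 lowest, which is 1.5% of genes, and 32 were lower without overlap, which is 0.212%. As the libraries were chosen on genes of the same table, these shares are the background against which lists are read and are no result in themselves. The median difference was 0.74 on the log2 scale for the 226 higher genes, with a range from 0.20 to 1.59, and -0.30 for the 32 lower genes. Over all genes it was -0.03. In 220 of the 226 and 28 of the 32, the mean of the libraries between the ends lay between the means of the ends. A difference of at least 1 was reached by 48 of the higher and, in the other direction, by 6 of the lower genes.

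Pearson's r with the score was above 0.8 for 186 genes and below -0.8 for 4. These correlations describe 15 libraries that differ from each other in the same dissected material, and are given with no test. For the 20 higher genes with the highest r among those differing by at least 1, r ranged from 0.90 to 0.97 and Spearman's rho from 0.89 to 0.96. Without saline male 4 and saline male 5, the scores farthest from the median, r for the same 20 genes ranged from 0.84 to 0.95 (n = 13). It ranged from 0.86 to 0.99 within the saline libraries (n = 8) and from 0.79 to 0.99 within the AVP libraries (n = 7). The columns of the data table were numbered in 2 runs, 1 to 8 and 13 to 20, and what separates them is not stated. Within these runs r was 0.93 or more (n = 7) and 0.83 to 0.98 (n = 8). As the 20 were picked for their r over all libraries, high values within these subsets were largely given by the choice. Over all 226 higher genes, r was 0.38 to 0.99 within saline, 0.10 to 0.99 within AVP, at least 0.23 in columns 1 to 8 and 0.41 to 0.98 in columns 13 to 20.

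**Figure D2:**
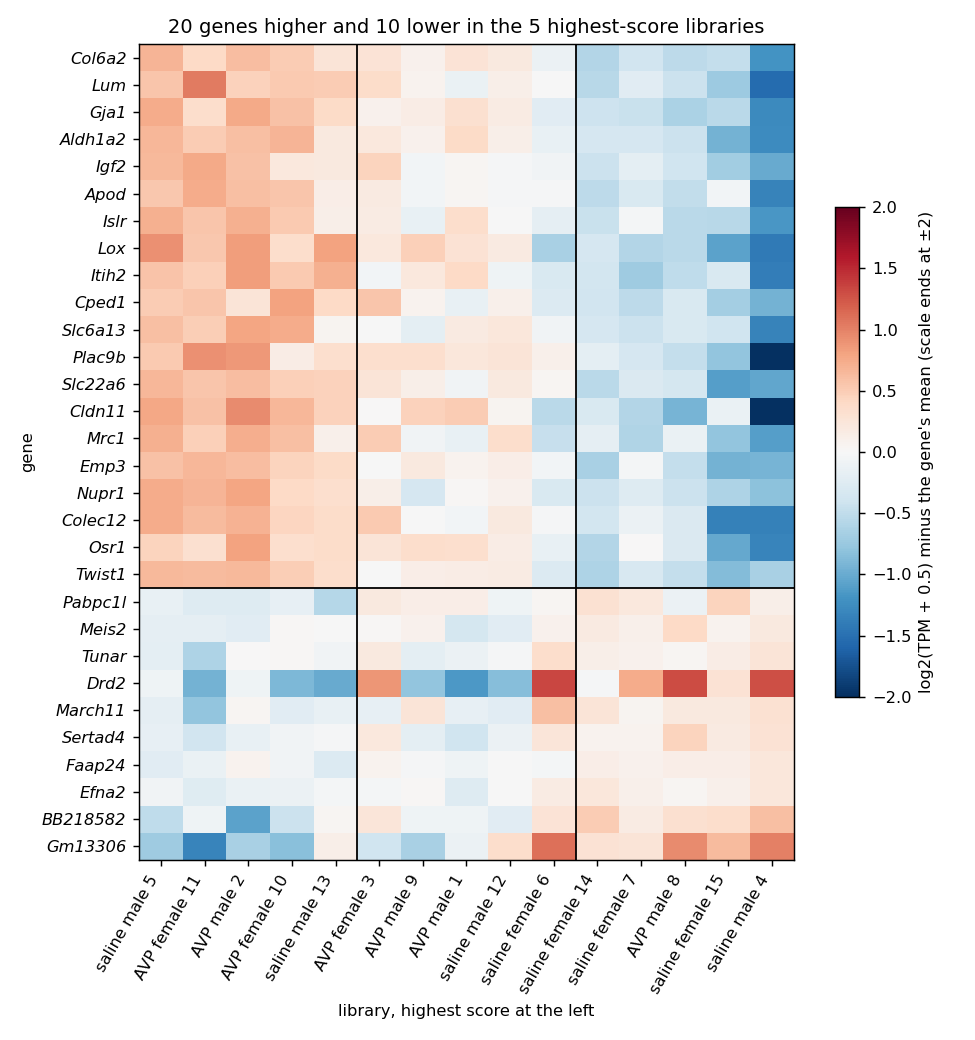
Rows are the 20 higher and the 10 lower genes named by their correlation with the score, columns are the 15 libraries in rank order, and colour is log2(TPM + 0.5) minus the gene's mean over libraries. The upper block passes from red at the left to blue at the right, with saline male 4 the deepest blue in most rows, and the lower block is fainter, with Drd2 and Gm13306 the strongest.

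Matrix genes were prominent among those that followed the score. Col6a2 (ENSMUSG00000020241, chromosome 10, 76595762 to 76623630, GRCm38), a chain of the microfibrillar type VI collagen, had the highest r of all 20, 0.97. It was at 13.7, 11.1, 13, 12 and 10.1 TPM in the 5 highest and at 5.35, 6.23, 5.66, 5.83 and 3.34 TPM in the 5 lowest, a difference of 1.13 ± 0.16. Its values in the libraries between, 7.63 to 10.2 TPM, reached just above the lowest value of the upper end. Lum (ENSMUSG00000036446, chromosome 10, 97565128 to 97572703), the keratan sulfate proteoglycan lumican, was at 9.11, 12.9, 8.54, 8.91 and 8.80 TPM against 3.94, 5.11, 4.35, 3.44 and 1.75 TPM, a difference of 1.32 ± 0.25 with r of 0.96. Lox, the lysyl oxidase that crosslinks collagen, was at 9.82, 7.49, 9.30, 6.50 and 9.06 TPM against 3.85, 3.16, 3.27, 2.12 and 1.56 TPM, a difference of 1.48 ± 0.22. Within each end, the AVP and saline values of all 3 genes overlapped, which the choice of libraries with like scores largely fixed. The lower end holds 1 AVP library, and nothing about treatment is read from this.

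Among collagen chains, 24 of 29 besides the score genes were kept and 7 were higher without overlap (29.2%, against 1.5% of all genes), with a median difference of 0.51. Without saline male 13 the count was 11. Col4a1, Col4a2, Col4a5 and Col4a6, among the 7, are counted again in the basement membrane list. Col5a2, a minor fibrillar chain that assembles with type I collagen, differed by 0.80 ± 0.20 and its partner chain Col5a1 by 0.74 ± 0.13. Others overlapped: Col6a3 differed by 1.28 ± 0.43 with 5.69 to 12.9 TPM against 0.931 to 6.51 TPM, and Col25a1, a transmembrane collagen of neurons, by -0.58. Small leucine-rich proteoglycans, which bind collagen fibrils, had 9 of 14 kept and 4 higher without overlap (44.4%), namely Aspn, Bgn, Fmod and Lum, with a median of 0.46. Bgn, which encodes biglycan, was at 34.0 to 44.5 TPM against 15.8 to 26.6 TPM. Genes that fold, trim and crosslink collagen behaved less uniformly, as 4 of 27 kept were higher without overlap (14.8%), at a median of 0.11, and 2 without saline male 5 or AVP female 11. The 4 were Lox, Crtap and Pcolce, and Serpinh1, the collagen chaperone, which was at 69.4 to 96.4 TPM against 45.8 to 67.9 TPM (0.62 ± 0.13). Ppib and P4hb, which serve folding of many secreted proteins, overlapped and differed by 0.06 and 0.11.

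Basement membrane genes had 25 of 26 kept, 8 higher without overlap (32%, against 1.5% of all genes) and a median of 0.39. Col4a1, a chain of the network-forming type IV collagen, was at 63.3 to 78.7 TPM against 37.6 to 55.1 TPM (0.58 ± 0.13). Nid1, the linker protein nidogen, differed by 0.78 ± 0.13, and Sparc, a collagen-binding matricellular protein, was at 177 to 231 TPM against 121 to 168 TPM (0.49 ± 0.11). The remaining 5 were Col4a2, Col4a5, Col4a6, Lama1 and Smoc2. Agrn, at -0.10, and Col15a1, at -0.44, were members that overlapped. Vessels also carry these proteins, and the endothelial and mural levels that moved with them are given further on.

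Meningeal fibroblast genes outside the score, a list that included matrix, binding and enzyme genes, had 30 of 32 kept. All 30 had a positive difference, 15 were higher without overlap (50%, against 1.5% of all genes), and the median difference was 0.81. Of the 15, Lum and Fmod are also counted among the proteoglycans, and Aldh1a2 and Igf2 among the signals. Cldn11, Gjb2 and Slc6a13 are also counted among transporters and junctions, so the counts of these lists are not separate results. Without saline male 4, and with the ends chosen again, 14 of 31 were higher without overlap at a median of 0.76. Their summed level was 956 to 1493 TPM in the 5 highest and 494 to 835 TPM in the 5 lowest. Crabp2, which carries retinoic acid within cells, was at 12.5 to 18.3 TPM against 4.2 to 6.93 TPM (1.37 ± 0.16), and Mgp, the matrix Gla protein that restrains calcification, was at 11 to 30.9 TPM against 4.94 to 10.7 TPM (1.43 ± 0.32). Apod, a secreted lipocalin, was at 90.3 to 138 TPM against 32.4 to 79.3 TPM (1.05 ± 0.24). Ptgds, the prostaglandin D2 synthase of arachnoid cells, differed by 1.42 ± 0.41 but overlapped, since it was at 197 TPM in AVP female 10 and at 220 TPM in saline female 7. The largest difference of all 226, chosen after the values were seen, was that of Efemp1, which encodes the matrix protein fibulin-3, at 3.66 to 5.95 TPM against 0.762 to 1.82 TPM (1.59 ± 0.22).

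Signals that the meninges send to the cortex were split. Of 23 of 25 genes kept, 7 were higher without overlap (30.4%, against 1.5% of all genes). The median was 0.27, which moved to 0.16 without saline male 4 or saline male 5, to 0.17 without AVP female 10 and to 0.46 without AVP female 11. Aldh1a2 (ENSMUSG00000013584, chromosome 9, 71215789 to 71296243), the enzyme that makes retinoic acid, was at 14.3, 12.9, 13.8, 14.5 and 10.2 TPM in the 5 highest and at 6.95, 6.93, 6.44, 4.38 and 3.43 TPM in the 5 lowest, a difference of 1.19 ± 0.21 with r of 0.95. Igf2 (ENSMUSG00000048583, chromosome 7, 142650766 to 142666816), an insulin-like growth factor, was at 193, 210, 185, 143 and 141 TPM against 91.3, 108, 93.7, 76.0 and 61.5 TPM (1.02 ± 0.18). H19, the imprinted neighbour of Igf2 and named here after the values were seen, was at 116 to 182 TPM against 53.9 to 89.6 TPM and had the same r with the score, 0.95. Each of the 4 bone morphogenetic protein ligands Bmp4, Bmp5, Bmp6 and Bmp7 was higher without overlap. Bmp4 was at 3.47 to 9.90 TPM against 1.39 to 2.40 TPM (1.45 ± 0.26) and Bmp7 at 10.1 to 17.3 TPM against 4.29 to 9.35 TPM (0.82 ± 0.22). Cxcl12, the chemokine that guides migrating neurons along the cortical surface, was at 58.3 to 77.2 TPM against 31.3 to 51.1 TPM (0.71 ± 0.17). Vegfa, the vascular growth factor, overlapped and differed by -0.14 ± 0.29.

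Transporters and junction proteins of the pia and arachnoid had 12 of 22 kept higher without overlap (54.5%, against 1.5% of all genes), and all 22 had a positive difference with a median of 0.74. The count was 8 without AVP male 2, saline male 5 or AVP female 10. Gja1 (ENSMUSG00000050953, chromosome 10, 56377330 to 56402513), the gap junction protein connexin 43, was at 75.7, 57.3, 76.1, 67.8 and 58.5 TPM against 33.6, 33.0, 28.7, 30.6 and 18.2 TPM (1.23 ± 0.18). Gja1 is also a gene of radial glia, whose markers as a list overlapped between the ends. Connexins Gjb2 and Gjb6 differed by 1.43 ± 0.29 and 1.38 ± 0.36. Cldn11, a tight junction claudin of arachnoid barrier cells, was at 19.2 to 27 TPM against 3.10 to 12.5 TPM (1.48 ± 0.34). Cdh1, the epithelial cadherin that arachnoid barrier cells also carry, had low levels of 1.57 to 3.75 TPM against 0.239 to 0.789 TPM (1.51 ± 0.23). As the lowest libraries were all under the 1 TPM limit, Cdh1 was kept only through the others and could not have counted as lower. Slc22a6, an organic anion transporter, was at 9.88, 9.12, 9.53, 8.68 and 8.54 TPM against 4.04, 4.85, 4.66, 2.56 and 2.71 TPM (1.22 ± 0.17). Slc6a13, a GABA and taurine transporter of the meninges, was at 13.7 to 23.2 TPM against 4.95 to 10.6 TPM (1.09 ± 0.24).

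Transcription factors of meningeal cells were expressed at a few TPM. Of 24 genes, 20 were kept and 8 were higher without overlap (40%, against 1.5% of all genes), with a median of 0.60, while quantile normalization left 5. Twist1 (ENSMUSG00000035799, chromosome 12, 33957671 to 33959829), a mesenchymal basic helix-loop-helix factor, was at 1.84, 1.80, 1.83, 1.58 and 1.39 TPM against 0.465, 0.683, 0.567, 0.318 and 0.445 TPM (1.14 ± 0.11). All 5 lowest libraries were under the 1 TPM limit, so Twist1 was kept only through the others and could not have counted as lower. Foxc1, a forkhead factor required to form the meninges, was at 2.40 to 3.42 TPM against 0.918 to 1.86 TPM (0.77 ± 0.16), and its paralog Foxc2 differed by 1.21 ± 0.22. The others were Osr1, Prrx1, Snai2, Tbx15 and Zic2. Ebf1, at -0.96 ± 0.35, and Foxp1, at -0.60, were members that overlapped and lay in the other direction. Both are also genes of developing striatal neurons.

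Promoter sequence was examined because the 20 named genes shared their order along the score. Of these genes, 16 had a promoter in the RefSeq table of GRCm38.p6, and the 100 bases before the RefSeq start were searched on both strands for the CCAAT box (CCAAT, or ATTGG on the other strand), the TATA box (TATAAA) and a forkhead core (GTAAACA). These motifs were chosen after the values were seen. The CCAAT box was in the windows of Aldh1a2, Cldn11, Mrc1, Slc22a6 and Twist1 (31.2% of 16), shown here with the motif in capitals and all on the plus strand, so that their otherwise different sequences can be compared. The windows are chr9:71215689-71215788, chr3:31149820-31149919, chr2:14229314-14229413, chr19:8617896-8617995 and chr12:33957571-33957670, in the same order. For Mrc1 and Slc22a6 the RefSeq start lay 22 and 43 bases from the gene start in the annotation used to sum TPM.
Aldh1a2: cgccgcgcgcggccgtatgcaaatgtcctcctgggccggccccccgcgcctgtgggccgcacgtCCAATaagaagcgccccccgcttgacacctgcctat
Cldn11: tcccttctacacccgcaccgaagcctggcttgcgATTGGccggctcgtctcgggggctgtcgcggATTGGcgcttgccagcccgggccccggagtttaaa
Mrc1: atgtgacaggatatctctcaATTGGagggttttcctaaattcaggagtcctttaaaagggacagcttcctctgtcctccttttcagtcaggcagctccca
Slc22a6: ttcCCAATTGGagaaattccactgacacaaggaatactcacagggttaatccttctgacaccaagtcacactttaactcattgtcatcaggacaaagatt
Twist1: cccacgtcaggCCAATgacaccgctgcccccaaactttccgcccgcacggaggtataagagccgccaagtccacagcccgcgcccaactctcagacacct

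Over the 158 of 226 higher genes with a promoter the CCAAT box was in 28 windows (17.7%), below the 23.2% of the 10810 kept genes with a promoter. The TATA box was in 2.53% of them and in 2.24% of the kept genes. The forkhead core was in 0 of 158 and in 0.490% of the kept genes. Shares in the higher genes were therefore close to or under the background, and a match in these windows is a description of letters only.

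Border macrophage markers followed the score as well. Of 13 markers, 8 were kept and 6 were higher without overlap (75%, against 1.5% of all genes). Their median was 0.91, with a summed level of 63.9 to 107 TPM in the 5 highest against 28.1 to 52.4 TPM in the 5 lowest. With quantile or median-of-ratios scaling 4 of 9 were higher without overlap. The count was 5 without AVP male 2, saline male 5, AVP female 10 or AVP female 11. Mrc1 (ENSMUSG00000026712, chromosome 2, 14229392 to 14332057), the mannose receptor CD206, was at 9.25, 7.72, 9.31, 8.5 and 5.90 TPM against 4.74, 3.42, 4.89, 2.92 and 2.28 TPM (1.09 ± 0.22). F13a1, the coagulation factor XIII subunit made by these macrophages, was at 8.85 to 15.1 TPM against 3.25 to 6.74 TPM (1.20 ± 0.25), and Lyve1, a hyaluronan receptor, differed by 0.94 ± 0.22. Dab2, Folr2 and Ms4a7 were the others, and Pf4 and Stab1 overlapped at 1.16 and 0.67. Microglia, the macrophages inside the brain tissue, did not show the same counts. Of their 16 markers 14 had a positive difference, and the median was 0.22. Without overlap 1 of the 16 was higher (6.25%), Tmem119, with a difference of 0.62 ± 0.16. P2ry12 overlapped at 0.16 ± 0.24, and the summed level of the markers was 118 to 195 TPM against 103 to 149 TPM.

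Vessel markers had positive medians close to that of the basement membrane list. Endothelial markers had 2 of 18 higher without overlap (11.1%, against 1.5% of all genes), Cdh5 (0.83 ± 0.14) and Tek (0.54). Their median was 0.37 and their summed level 384 to 520 TPM against 282 to 417 TPM. Mural markers had 2 of 12 kept higher without overlap (16.7%), Rgs5 (0.31) and Higd1b (0.36). The mural median was 0.38 and the summed level 181 to 234 TPM against 123 to 174 TPM, without overlap. Without saline male 13 the counts were 4 of 18 and 4 of 12. The endothelial count was 3 without AVP male 2 or AVP male 8, and the mural count 1 without saline male 4, AVP male 8, saline female 14 or saline female 15. Red blood cell markers had 0 of 5 kept higher without overlap, although their median was 0.72, as their sum ran from 3554 to 13661 TPM against 2454 to 5708 TPM. Whether the part of vessels and blood in the matrix and signal genes was separate from that of the meninges was not tested.

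Markers of other tissues near the dissection overlapped between the ends. Cartilage and bone markers had 3 of 17 kept, Alpl, Col2a1 and Spp1, with 0 that did not overlap, although all 3 had a positive difference at a median of 0.57, and the summed level was 18 to 36.9 TPM against 16.8 to 21 TPM. Their part in the collagen values was not tested. Their defining gene Acan stayed under 1 TPM in both ends. Skin and muscle markers had 5 of 15 kept with a median of -0.07, and the keratin Krt5 was at most 0.113 TPM. Choroid plexus markers had 0 of 6 kept that did not overlap and a median of 0.38, which ran from 0.26 without saline female 15 to 1.06 without saline male 13. Ttr, the transthyretin of that epithelium, ran from 1.53 to 1348 TPM in the 5 highest and from 3.23 to 922 TPM in the 5 lowest, and its Pearson's r with the score was -0.02 (n = 15).

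Neural lists overlapped between the ends for most genes. Radial glia, intermediate progenitor, cortical plate neuron and Cajal-Retzius cell markers each had 0 genes without overlap, with medians of 0.14, 0.14, -0.09 and 0.07. Single libraries moved these small medians. That of radial glia was -0.04 without AVP female 10 and 0.05 without saline male 5, and that of Cajal-Retzius cells ran from -0.01 without AVP female 10 to 0.26 without saline male 13. Cell cycle genes had a median of 0.19, thalamus and midbrain markers 0.23, oligodendrocyte precursor markers -0.29 and immediate early genes -0.05, also with 0 genes without overlap. The thalamus and midbrain median was 0.00 without AVP female 10 and 0.12 without saline male 5, and the oligodendrocyte precursor median -0.17 without AVP female 11. For immediate early genes it ran from -0.14 without AVP male 8 or AVP female 10 to 0.01 without saline male 13. Markers of interneurons and the ventral forebrain had a median of -0.38, and 2 of 22 kept, Tac1 and Six3, were lower without overlap, against 0.212% of all genes. That count was 7 without saline female 14, 3 without saline female 7, and 0 without AVP male 2, saline male 5, AVP female 11 or saline male 13, and it was 4 with quantile or median-of-ratios scaling.

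**Figure D3:**
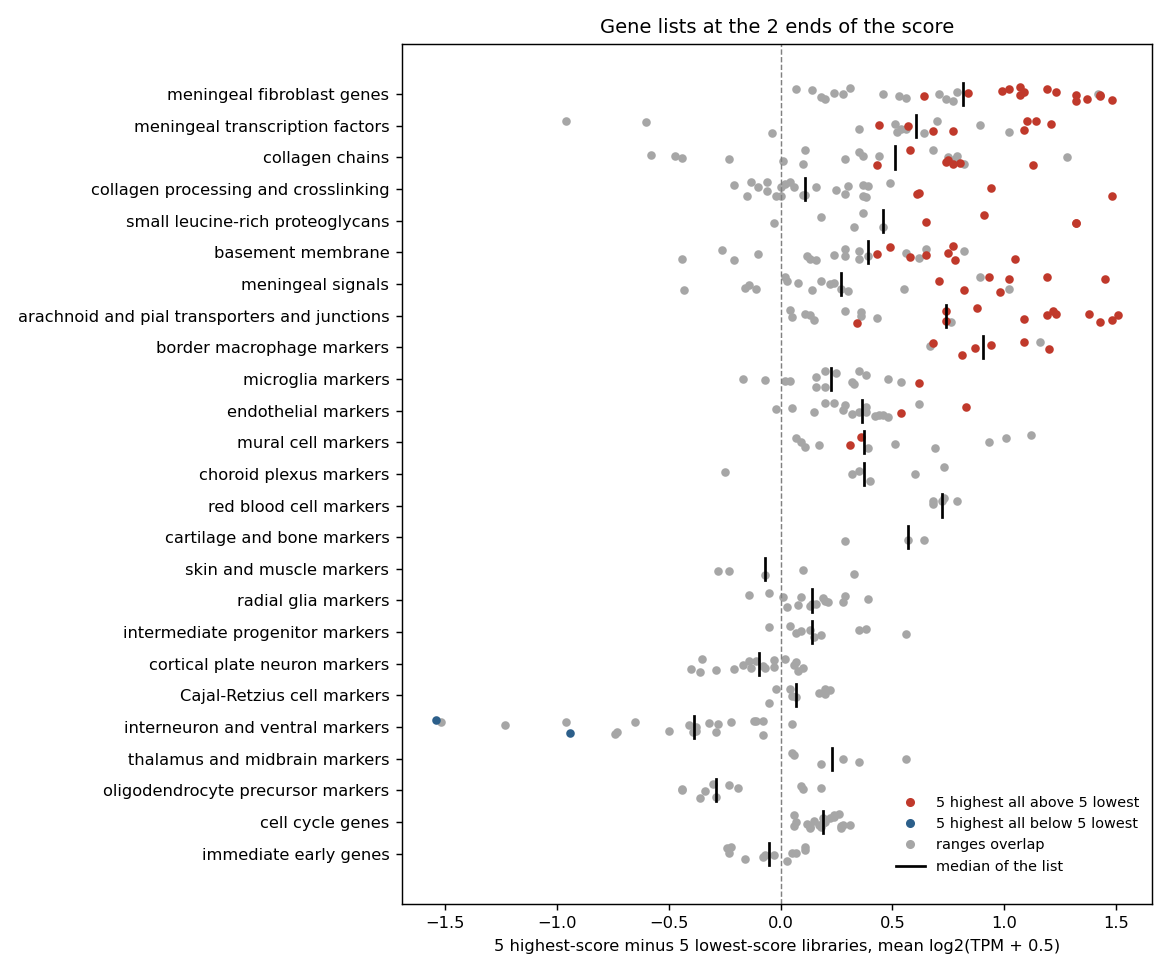
Each point is 1 gene of a list, placed on the x axis by its mean log2(TPM + 0.5) in the 5 highest libraries minus that in the 5 lowest, with black bars for list medians. Red points did not overlap and were higher, blue points did not overlap and were lower: red is frequent in the meningeal and border macrophage lists, where medians run from 0.11 to 0.91, and the 2 blue points are in the interneuron and ventral list.

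Genes lower at the upper end were fewer, smaller in their differences and less closely tied to the score. For the 10 named genes r ranged from -0.84 to -0.59, Spearman's rho from -0.86 to -0.59, and r without the 2 farthest libraries from -0.85 to -0.54. Gm13306 (ENSMUSG00000073877, chromosome 4, 42153436 to 42158839) had the lowest r, at 3.94, 2.41, 4.12, 3.56 and 7.33 TPM against 8.38, 8.17, 13.4, 10.7 and 14 TPM (-1.30 ± 0.28). It is a predicted gene in a region of near-identical copies, so its value is uncertain. Efna2, an ephrin of the neuronal surface, was at 23.7 to 27.3 TPM against 29.1 to 33.2 TPM (-0.27 ± 0.05), and Meis2, a homeobox factor of striatal and other forebrain neurons, at 147 to 174 TPM against 180 to 227 TPM (-0.30 ± 0.08). Sertad4 differed by -0.37 ± 0.09, and the remaining 5 besides Drd2, namely BB218582, Faap24, March11, Pabpc1l and Tunar, by -0.27 to -0.80.

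Several of the genes with the largest lower values are known from striatal projection neurons. Drd2 (ENSMUSG00000032259, chromosome 9, 49340627 to 49408177), the dopamine D2 receptor, was at 1.97, 0.861, 1.97, 0.902 and 0.8 TPM in the 5 highest and at 2.08, 3.90, 6.01, 2.69 and 5.91 TPM in the 5 lowest (-1.33 ± 0.34). Tac1, the substance P precursor, was at 4.85 to 11.1 TPM against 14.8 to 49.9 TPM (-1.54 ± 0.39). Rxrg, a retinoid receptor, Ikzf1, a zinc finger factor, and Pdyn, the dynorphin precursor, were named after their values were seen, with differences of -2.24 ± 0.43, -1.38 ± 0.29 and -1.16 ± 0.36. Libraries between the ends covered both levels: Drd2 was at 4.31 TPM in AVP female 3 and 6.14 TPM in saline female 6, and at 0.678 to 1.01 TPM in the other 3. The same 2 libraries held 29.5 and 38.3 TPM of Tac1 against 1.38 to 3.11 TPM in the other 3. Hence r with the score was -0.62 for Drd2 and -0.45 for Tac1, and these genes did not rank along the score as the matrix genes did. Isl1, of the same neurons, overlapped at -1.52. Drd2 and Pdyn were under the 1 TPM limit in several of the other libraries, with a Pdyn median of 0.938 TPM in the 5 highest. Both were kept only through the 5 lowest libraries, so the filter partly fixed their direction.

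**Figure D4:**
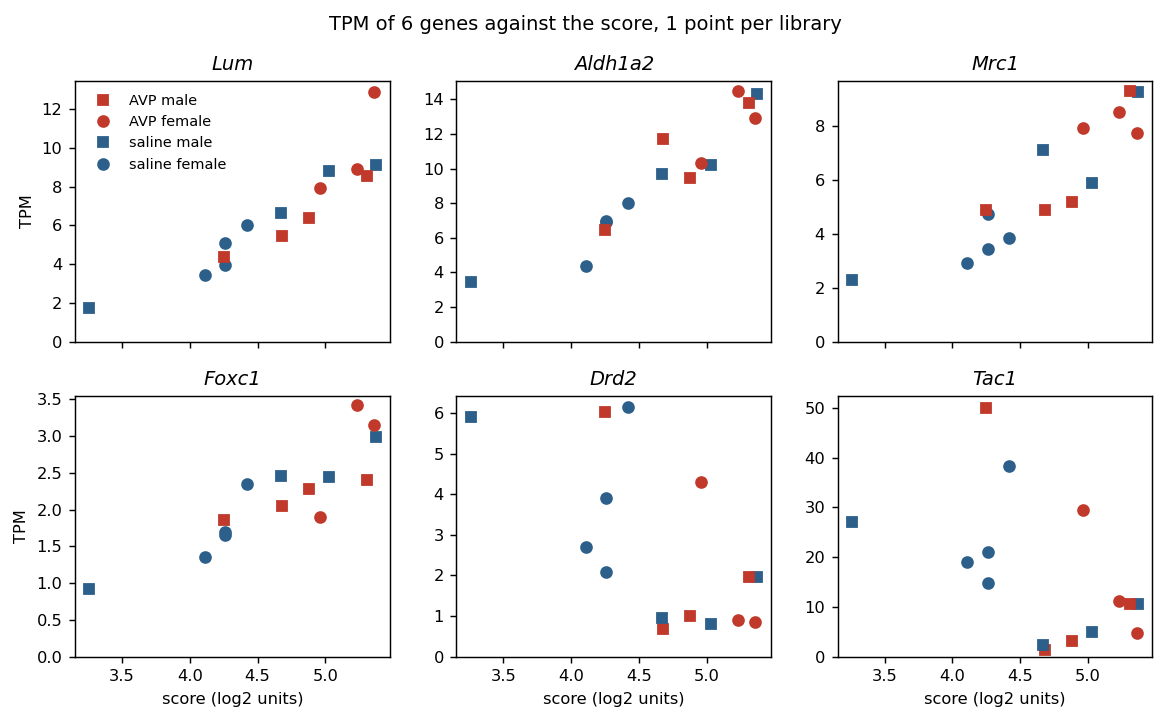
TPM of 6 genes (y axis, linear from 0) against the score (x axis, log2 units), 1 point per library, coloured by treatment and shaped by sex. Lum, Aldh1a2, Mrc1 and Foxc1 climb along the score, whereas Drd2 and Tac1 split the libraries between the ends, with AVP female 3 and saline female 6 high and the other 3 low.

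One copied gene among the 20 needs care. Plac9b was at 17.5 to 30.1 TPM against 2.97 to 13.7 TPM (1.36 ± 0.40, r = 0.93), while its near-identical copy Plac9a, named after the values were seen, was at 0.327 to 6.06 TPM against 0.726 to 7 TPM (r = -0.41). Reads that fit both copies were divided between them by the authors' quantification, so the value of either one is uncertain. The rest of the 20 were Colec12, Cped1, Emp3, Islr, Itih2, Nupr1 and Osr1, with differences of 1.07 to 1.28 and r of 0.91 to 0.94.

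Treatment was unevenly spread over the score. AVP libraries took 3 places among the 5 highest, 3 in between and 1 among the 5 lowest, and saline libraries took 2, 2 and 4. The mean score was 5.19 ± 0.20 in AVP females (SD, n = 3) and 4.26 ± 0.13 in saline females (SD, n = 4), a difference of 0.92, and each AVP female scored above each saline female in 12 of 12 pairs. In males the means were 4.78 ± 0.44 with AVP (SD, n = 4) and 4.58 ± 0.93 with saline (SD, n = 4), a difference of 0.20, with AVP higher in 8 of 16 pairs. The males' direction rested on 1 library: without saline male 4 the difference was -0.25. Without the library labelled saline male 12 it was 0.22, with AVP higher in 5 of 12 pairs. Saline males alone spanned the whole range of 2.11, whereas AVP females spanned 0.40 and saline females 0.31. By run of column numbers, the difference was 0.62 and 1.11 in females and 0.67 and -0.28 in males. These are descriptions of a measure that defined the ends, and no test of the score was made.

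The genes that follow the score were then compared by treatment, the question the study was designed for. AVP was compared with saline by limma's moderated two-sided test, with p-values adjusted over all genes by the Benjamini-Hochberg method. In females, 0 of 15132 genes passed an adjusted p of 0.05 (0%), and 683 (4.51%) had an unadjusted p under 0.05 in limma. Without saline female 15 there were 6 calls, and 1 without saline female 7 or AVP female 11. With another method the study called 31 genes in the females, which are treated further on. Among the 216 of the 226 higher genes tested in females, 216 were higher with AVP, with a median log2 difference of 0.56 where all genes had -0.05. Of them 0 were called, although 137 had an unadjusted p under 0.05 in limma, beside 4.51% of all genes. The upper end holds 2 AVP females and the lower end 3 saline females, so the choice of libraries partly fixed this direction and the counts are no separate evidence for it. All 32 lower genes were lower with AVP in females, for the same reason in part, with a median of -0.30.

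Examples show how large and how uncertain these differences were. Postn, the matrix protein periostin, differed between AVP and saline females by 1.11 ± 0.17 on the log2 scale (adjusted p = 0.998, limma). Lum differed by 1.02 ± 0.24 and Mrc1 by 1.03 ± 0.19, both with an adjusted p of 0.998 in limma. Aldh1a2 differed by 0.90 ± 0.22 (adjusted p = 0.999, limma). Drd2 had -0.91 ± 0.50 (adjusted p = 0.999, limma).

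In males, 1 of 15271 genes was called (0.00655%), Mir6392, with a log2 difference of -4.29 (adjusted p = 0.0187, limma), and it overlapped between the ends of the score. The count was 0 without AVP male 1, saline male 5, saline male 12 or saline male 13, 6 without AVP male 2 and 5 without AVP male 8 or AVP male 9. An unadjusted p under 0.05 in limma was found for 2057 genes in males (13.5%). The 226 genes had a median of -0.01 with 105 of 226 higher with AVP, where the median of all genes was -0.10. Without saline male 4 the median was -0.24 and 10 of 226 were higher. With quantile normalization the median of all genes moved to 0.02 and that of the 226 to 0.14, with 183 higher, so this scaling moved both medians upwards by like amounts. Postn had -0.11 ± 0.33 in males (adjusted p = 0.904, limma) and Lum 0.08 ± 0.44 (adjusted p = 0.948, limma). Whether the treatment difference of these genes differed between the sexes was not tested.

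Over all 15 libraries with sex as a term, 0 of 15078 genes were called (0%), with 1564 (10.4%) at an unadjusted p under 0.05 in limma. The 226 genes had a median of 0.25, with 217 higher with AVP. With the score added as a further term, 0 of 15073 were called (0%) and 712 (4.72%) had an unadjusted p under 0.05 in limma. The median of the 226 was then -0.07, beside -0.08 for genes at large, and AVP was higher in 53 of 226. Postn went from 0.45 ± 0.25 (adjusted p = 0.503, limma) to 0.02 ± 0.16 (adjusted p = 0.981, limma) when the score was included. Mrc1 was at 0.06 ± 0.14, Aldh1a2 at 0.06 ± 0.12 and Lum at -0.05 ± 0.11 with the score included. Because the 226 genes were picked for separating the ends of this score, a smaller treatment difference with the score in the fit was largely fixed by that choice, and nothing is read from it. In females alone, where the score and the treatment do not overlap, adding the score gave a median of -0.04 with 97 of 216 higher with AVP, and the standard error of Lum grew from 0.24 to 0.64. An effect of AVP on meningeal tissue or its RNA and a difference in how much of it was dissected cannot be told apart here.

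**Figure D5:**
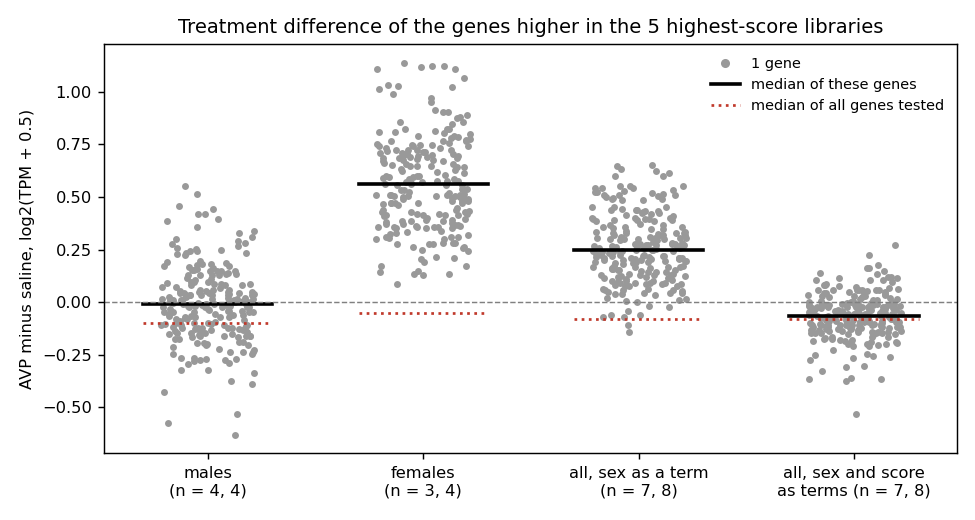
Each point is 1 of the 226 genes higher in the 5 highest-score libraries (216 tested in females), placed on the y axis by its AVP minus saline difference in log2(TPM + 0.5) in 4 limma fits on the x axis, with solid lines for their medians and dotted lines for the medians of all genes tested. The medians are -0.01 in males, 0.56 in females, 0.25 over all libraries with sex as a term and -0.07 with sex and score as terms.

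The study called 31 genes between AVP and saline females by the Wald test of sleuth at a false discovery rate under 0.05. The limma fit on TPM is another method, and why its count differs was not tested. Of the 31 genes, 28 are not score genes, and the study chose them on these libraries, so they are not independent evidence. Of the 28, 23 did not overlap between the ends of the score and were higher (82.1%, against 1.5% of all genes), and the median r with the score was 0.87. The upper end holds 2 AVP females and the lower end 3 saline females, and the list was called between these groups. That share was therefore partly fixed by the choice of genes and libraries. The 28 genes had a median r of 0.91 within saline libraries and 0.82 within AVP libraries, and no cause is read from these values. By treatment, their median was 0.71 in females, 0.02 in males and, without saline male 4, -0.26 in males with 0 of 28 higher. Their summed level was 433 to 634 TPM in the 5 highest libraries and 219 to 334 TPM in the 5 lowest. With sex and score as terms the median was -0.01, with 13 of 28 higher with AVP and 0 called in limma, a value to which the same limit applies since most of the list separated the ends.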

How the data were processed

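Dorsal forebrain mRNA was sequenced as stranded libraries (150 bp paired-end). Per the labels and methods, the authors trimmed reads with Trim Galore 0.4.1, quasi-mapped them to GENCODE M16 (GRCm38) and quantified them with kallisto 0.43.1. The deposited table holds TPM for 133849 transcripts in 15 libraries; all columns were matched to samples. TPM keep no depth, so no counting interval was given. TPM were summed to 53337 genes with GENCODE M21 (404 transcripts had no gene).

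Genes were kept at 1 TPM or more in 50% of the libraries of a comparison. Values are log2(TPM + 0.5), which understates changes of low genes. AVP was compared with saline by limma 3.58.1 (R 4.3.3) with a mean-variance trend across all genes, Benjamini-Hochberg threshold 0.05, and tested on simulated data. The test for counts was not needed, as the table holds TPM. The ends of the score were described with no test.

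Genes were named by rule: the 5 score genes, the 20 with the highest r differing by at least 1 without overlap, the 10 with the lowest r differing by at least 0.25, and, from 26 lists, those most expressed or most different. Members and lists were chosen with earlier results of these data known. Alternatives are given in the closing section. Figures used matplotlib 3.10.9.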

Additional observations from a re-analysis of the deposited data

Results flagged for a closer look

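In groups of 4 libraries, the lowest or highest value was set against the others, and 5 of 108 values examined stood apart, where chance gives about 1 in 20. A value was taken when the gap to its nearest neighbour divided by the group's range was over 0.829, and levels are log2(TPM + 0.5). In saline male 4, the lowest library of the score, Plac9b was at 1.80 where the other saline males had 4.30 to 4.56 (ratio 0.905), Osr1 was at 0.50 where they had 1.96 to 2.26 (0.830) and March11 was at 3.05 where they had 2.51 to 2.60 (0.837). Mrc1 was at 3.29 in AVP male 2, one of the 5 highest, where the other AVP males had 2.43 to 2.50 (0.917). Itih2 was at 1.04 in saline female 7 where the other saline females had 1.37 to 1.44 (0.829).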

How the results depend on the processing

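The 258 genes without overlap, 226 higher and 32 lower, became 68 (50 and 18) with a filter of 5 TPM in every library, 666 (476 and 190) with 4 against 4 libraries and 30 (25 and 5) with 7 against 7. The lower count was 49 with quantile normalization, 56 with median-of-ratios scaling and 76 with no filter. With 7 against 7 libraries, 0 collagen chain, basement membrane, signal, transporter and junction or border macrophage genes were higher without overlap. Their list medians then ran from 0.13 for signals to 0.74 for border macrophages. The fibroblast list had 2 of 30, transcription factors 2 of 20 and the study's female list 3 of 28. At 5 TPM in every library, 0 of 3 transcription factors were higher without overlap. Leaving out each library in turn and choosing the ends again gave 222 to 344 genes in all, 190 to 300 higher and 25 to 85 lower, with the fewest lower without AVP female 11 and the most without AVP female 10. Of 565 values of the 20 named higher genes under 29 settings, 548 still did not overlap, and of 284 values of the 10 lower genes 241 did not. In females the score difference was 0.62 in columns 1 to 8, 1.11 in columns 13 to 20, and 0.83 to 1.03 with each library left out. In males it was 0.67 and -0.28 by run, and ranged from -0.25 without saline male 4 to 0.46 without saline male 5. The number called by limma in males was 0 with a pseudocount of 1, a filter of 5 TPM, the run or the score as a covariate, and 2 with no trend. With each library left out it was 0 to 6 in males (6 without AVP male 2), 0 to 6 in females (6 without saline female 15), 0 to 1 with sex as a term (1 without AVP female 10) and 0 with sex and score. The causes were not tested. No paired analysis was possible because the groups share no replicate numbers.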
